A study of Danio rerio with 18 samples.

Results

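Genes of the heart were followed in RNA-Seq data from whole zebrafish embryos, 8 in number: myl7, vmhc, myh6, tnnt2a, nkx2.5, hand2, tbx5a and nppa. Members were chosen by symbol, ignoring case and also accepting a symbol without its final a. This rule found 6 of the 8 symbols and 9 of the 32521 gene identifiers in the count files. The symbols myh6 and tnnt2a each took several identifiers, as described below. The symbol nkx2.5 was found only through a synonym in the RefSeq table (NKX2-5, ENSDARG00000018004), so this gene stands beside the 9 identifiers and is not counted among them. The symbol vmhc was not assigned, because the synonyms in that table lead from vmhc to MYH7 and from MYH7 to more than 1 gene. MYH7 (ENSDARG00000079782) is therefore shown only as a comparison, and a ratio of ventricular to atrial myosin was not computed.

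The embryos came from Tg(ddx4:ddx4-EGFP) females of ABTL background crossed to casper males, with the offspring of 3 mating pairs pooled. At the 1-cell stage the yolk received 1 nl containing either 0.7 ng of D16A-StCsm(EGFP), a DNase-deficient type III CRISPR complex whose guide RNA targets the EGFP transcript, or diluted Tris storage buffer (mock). Pools of 25 embryos were harvested at the 128-cell stage, at 5 hours post fertilization (hpf) and at 24 hpf in 3 independent experiments, called batches here. This gave 18 libraries, 3 for each of 6 conditions. The ddx4 transgene is supplied by the mother, and no member was an intended target of the complex.

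The heart of a zebrafish forms from bilateral fields of mesoderm that move to the midline, fuse into a tube and begin to beat within the first day. Transcription factors of the NKX, HAND and TBX families act early in this programme, and the proteins of the contractile filament follow when myocardial cells differentiate. The myocardium is then made of contracting muscle cells around an inner endocardium, with the atrium and the ventricle using different myosin heavy chains. The heart is a small portion of the embryo at 24 hpf, and hand2 and tbx5a are also known from the pharyngeal arches and the pectoral fins.

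Libraries held 11763787 to 21092691 reads assigned to genes. Levels are given as CPM, read counts per 1000000 reads assigned to genes, after TMM scaling over the 18 libraries, and they are not corrected for gene length, so they order libraries and not genes. EGFP, the targeted transcript, was lower in StCsm(EGFP) than in mock embryos in 3 of 3 batches at both earlier stages. At 24 hpf it was at 0.851 to 1.07 CPM (library totals) in mock and at 1 to 2.1 CPM in StCsm(EGFP) libraries, and the labels could not be checked by it. After TMM scaling, the StCsm(EGFP) library of batch 2 at 24 hpf stood apart from the other libraries of that stage. It had the lowest summed level of the skeletal muscle list (21257 CPM against 25355 to 28711 CPM in the others) and of the 9 heart identifiers (106 CPM against 141 to 148 CPM). With library totals both gaps shrank, and its heart sum was not the lowest. By these totals MYL7 stood at 24.1 CPM there and at 16.9 to 31.3 CPM in the others. The first MYH6 stood at 47.5 CPM there and at 49.7 to 57.7 CPM in the others. This library also had the most reads without a feature, 17.9% against 12.6% to 14.1%. Injection effects of the genes and lists tested at 24 hpf are therefore also given without batch 2. The levels of the members and of the skeletal muscle list entered this choice, so their values without batch 2 are no independent check. Values without batches 1 and 3 are given beside them for the tested members and most lists.

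Of the genes of the cardiac filament, MYL7, the first MYH6 and the first TNNT2 had few reads before 24 hpf and at least 15.1 CPM at 24 hpf, while other identifiers of myh6 and tnnt2a followed other courses. The gene myl7 (MYL7, ENSDARG00000019096) encodes the regulatory light chain of cardiac myosin. It had 0 to 4 reads in each of the 12 libraries of the 128-cell stage and 5 hpf. At 24 hpf its level was 29.8, 35.7 and 43.8 CPM in mock batches 1 to 3 and 25.5, 27.0 and 36.1 CPM in the StCsm(EGFP) batches. All 6 libraries of 24 hpf were far above all 12 earlier libraries, and the mock and StCsm(EGFP) groups overlapped. From 5 hpf to 24 hpf the pooled CPM rose 684-fold in mock embryos (95% counting interval 189 to 5653, from 1092 and 2 reads) and 564-fold in StCsm(EGFP) embryos (156 to 4661, from 989 and 2 reads). Such intervals are exact binomial ones and cover counting error only.

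The symbol myh6, for the atrial myosin heavy chain, was carried by 3 identifiers with different levels. The first, with the most reads (MYH6, ENSDARG00000079564), had 1 to 10 reads per library before 24 hpf. At 24 hpf it reached 79.1, 78.4 and 69.6 CPM in the mock batches and 81.6, 53.3 and 75.2 CPM in the StCsm(EGFP) batches. A second identifier (myh6, ENSDARG00000090637) had 0 to 5 reads before 24 hpf and 0.763 to 1.84 CPM at 24 hpf. The third identifier (MYH6, ENSDARG00000114031) differed in its timing. It had 0 to 3 reads per library at the 128-cell stage, was already at 0.433 to 1.08 CPM in all 6 libraries of 5 hpf, and reached 1.65 to 6.14 CPM at 24 hpf. Whether reads were split between near-identical myosin genes was not tested, so values of single myosin identifiers are uncertain. The symbol was matched ignoring case, and only the second identifier was written as myh6 in lower case. Which of the 3 is the zebrafish atrial gene was not checked, so none is read as the atrial myosin.

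Cardiac troponin T, encoded by tnnt2a, ties the troponin complex to tropomyosin in the thin filament. The symbol was carried by 2 identifiers with different courses. The first (TNNT2, ENSDARG00000020610) had 2 to 25 reads in the earlier libraries. At 24 hpf it stood at 22.0, 21.8 and 23.8 CPM in mock and at 21.2, 15.1 and 18.3 CPM in StCsm(EGFP) embryos. The second (TNNT2, ENSDARG00000100694) was highest at the 128-cell stage, with 4 to 23 reads per library, and had 1 to 3 reads at 5 hpf and 0 to 1 at 24 hpf. Its pooled CPM at the 128-cell stage was 5.26 times that at 24 hpf in mock embryos (95% counting interval 1.66 to 26.7, from 36 and 3 reads) and 6.75 times in StCsm(EGFP) embryos (1.72 to 58.1, from 32 and 2 reads). Of the 36 mock reads 23 came from batch 1, and without that batch the mock ratio was 2.9 (0.658 to 26.5), an interval that includes 1. In StCsm(EGFP) embryos the ratio was 5.85 to 9.51 with a batch left out, and without batch 2 its interval also included 1 (0.908 to 245). The files do not say which of the identifiers is tnnt2a, and the symbol alone does not separate them.

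Among the transcription factors, hand2 (HAND2, ENSDARG00000008305) had the filament genes' timing. This basic helix-loop-helix factor is required for the formation of myocardial cells. It had 0 to 4 reads per library before 24 hpf. At 24 hpf the level was 6.8, 5.61 and 6.69 CPM in mock and 4.79, 5.43 and 5.56 CPM in StCsm(EGFP) embryos. All StCsm(EGFP) libraries lay below all mock libraries after TMM scaling. With library totals the groups overlapped, at 3.18 to 4.85 CPM and 4.13 to 4.78 CPM. The homeobox factor nkx2.5, read through NKX2-5, had 0 reads in the 6 libraries of the 128-cell stage, 0 to 5 at 5 hpf and 5 to 16 at 24 hpf. Its level at 24 hpf was 0.851, 1.16 and 1.47 CPM in mock and 0.625, 0.785 and 0.545 CPM in StCsm(EGFP) embryos. Against a floor of 3 counts over the 3 libraries of the 128-cell stage, its pooled CPM at 24 hpf was 26.6-fold higher in mock embryos. This floor ratio was 18.2 in StCsm(EGFP) embryos. Without the floor, the lower ends of the 95% counting intervals were 20.5 (mock, 35 and 0 reads) and 13.6 (StCsm(EGFP), 23 and 0 reads).

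The T-box factor tbx5a (TBX5, ENSDARG00000024894), which acts in heart and fin, did not share this course. It was low at 24 hpf, at 0.243, 0.58 and 0.458 CPM in mock and at 0.417, 0.589 and 0.981 CPM in StCsm(EGFP) embryos. At 5 hpf the mock libraries held 4.49, 0.692 and 0.225 CPM, from 54, 8 and 3 reads. The StCsm(EGFP) libraries of 5 hpf held 5.78, 0.658 and 0.604 CPM, from 68, 8 and 9 reads. Both libraries of batch 1 were thus far above the other 4, whichever solution had been injected, with the lower of them 6.49 times the highest other. Of 14371 genes with at least 1 CPM in both batch 1 libraries of 5 hpf, 15 (0.104%) exceeded the other 4 libraries by more than 4-fold in this way, a count made after the TBX5 values had been seen. MYH7 was also highest in batch 1 at 5 hpf, with 3.41 CPM against 1.3 and 0.824 in mock and 4.42 CPM against 2.47 and 1.34 in StCsm(EGFP) embryos. A stage course of TBX5 therefore rests on batch 1 and is not given as a fold.

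The peptide gene nppa (nppa, ENSDARG00000052960), which encodes a natriuretic hormone of the working myocardium, was barely detected. It had 0 to 1 read in each earlier library. At 24 hpf it had 1, 4 and 5 reads in mock and 1, 8 and 2 reads in StCsm(EGFP) libraries, or 0.104 to 0.523 CPM. Pooled over 3 libraries, mock embryos had 10 reads at 24 hpf and 1 at 5 hpf, a ratio of 12.5 in CPM (95% counting interval 1.78 to 543). StCsm(EGFP) embryos had 11 reads and 1 read, also a ratio of 12.5 (1.82 to 540).

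**Figure D1:**
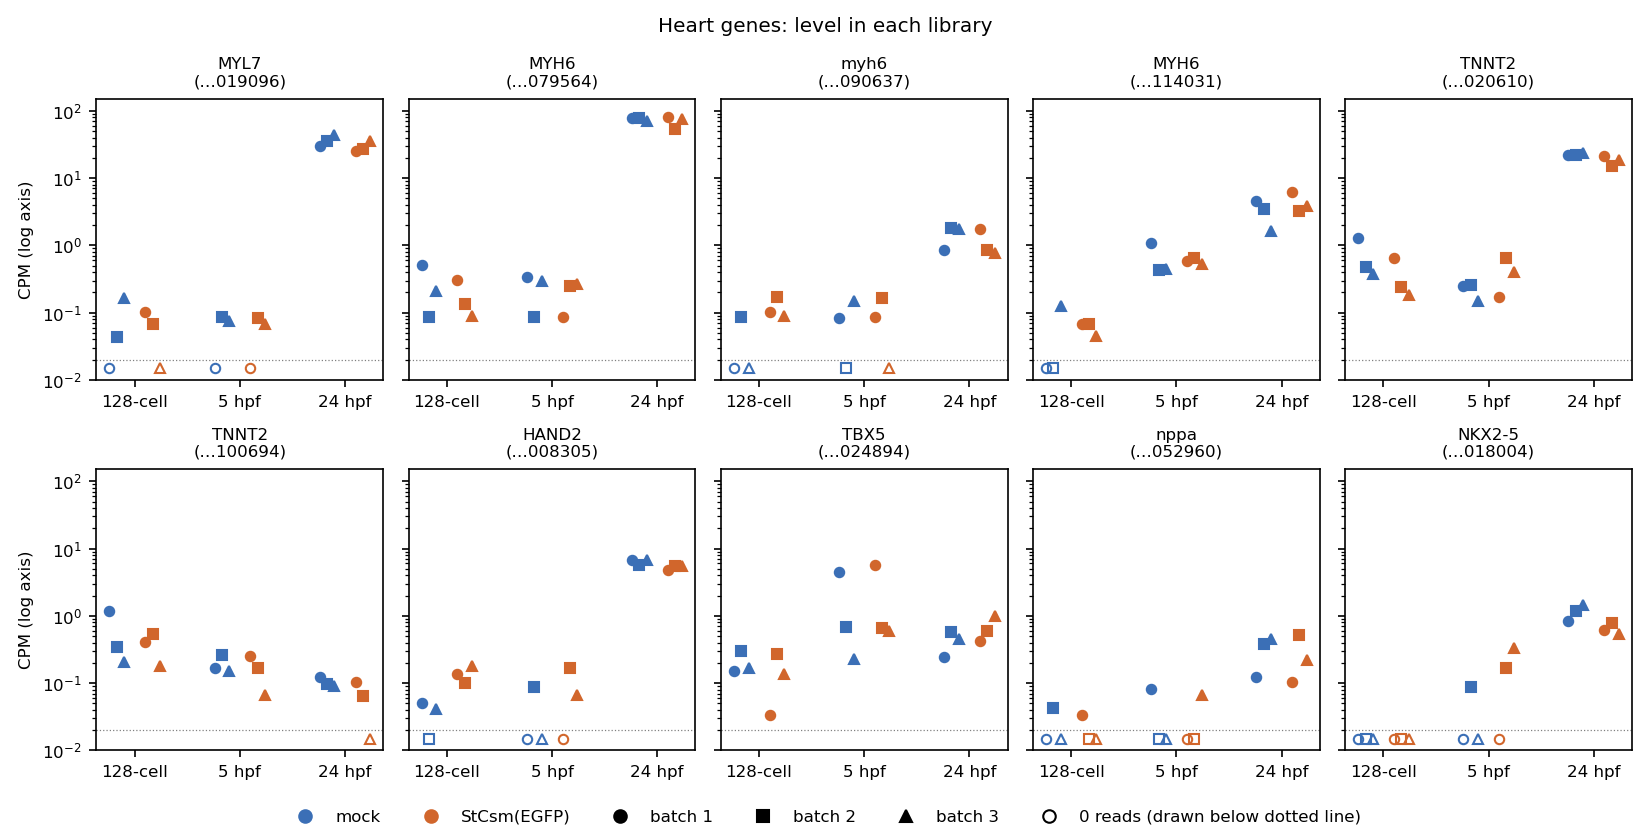
Level of each heart identifier in every library, in CPM on a log axis, by stage (mock blue, StCsm(EGFP) orange, marker shape for the batch, open markers for libraries with 0 reads). MYL7, the first MYH6, the first TNNT2 and HAND2 are at 1.27 CPM or less before 24 hpf and at 4.79 CPM or more at 24 hpf. The second TNNT2 has 0 to 1 read per library at 24 hpf, and TBX5 is highest in both batch 1 libraries of 5 hpf.

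The first comparison asks how the members changed between stages, and was fitted on the 9 mock and on the 9 StCsm(EGFP) libraries separately (edgeR's quasi-likelihood test with the batch as a block, adjusted p under 0.1). Of the 9 identifiers, 5 passed the filter on low counts: MYL7, the first and the third MYH6, the first TNNT2 and HAND2. The filter admits genes that are high in a single stage, so identifiers that passed through 24 hpf alone had to differ. All 5 passed through their 24 hpf libraries, so their rise to 24 hpf was largely set by the filter. Counts and p-values of that rise are given as description only. From 5 hpf to 24 hpf all 5 tested identifiers rose in both injections, where 41.7% of all genes tested rose in mock embryos and 40.6% in StCsm(EGFP) embryos. From the 128-cell stage to 24 hpf the 5 also rose in both, against 47% of all genes tested in mock and 45.3% in StCsm(EGFP) embryos. With library totals in place of TMM, the split of all genes from 5 hpf to 24 hpf in mock embryos went from 7974 higher and 7631 lower to 6621 higher and 9029 lower, and all 5 members still rose. A rise in whole-embryo RNA cannot tell more cells of a type from more RNA per cell.

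In mock embryos the log2 change from 5 hpf to 24 hpf was 8.26 ± 0.37 (SE, 3 libraries per stage) for the first MYH6, with an edgeR adjusted p of 5.67e-10. It was 6.69 ± 0.44 for the first TNNT2 (edgeR adjusted p 1.53e-08) and 2.29 ± 0.53 for the third MYH6 (edgeR adjusted p 0.00147). These p-values describe the fits and do not bear on a direction that the filter largely set. In StCsm(EGFP) embryos the same changes were 8.33 ± 0.37, 5.39 ± 0.49 and 2.80 ± 0.42. Fitted values for MYL7 (9.23 in mock, 8.96 in StCsm(EGFP)) and HAND2 (7.50 and 5.96) rest on 1 to 3 reads per injection at 5 hpf. For HAND2 the pooled CPM ratio was 234 in mock embryos (95% counting interval 41.5 to 9299, from 187 and 1 reads) and 68.4 in StCsm(EGFP) embryos (23.0 to 335, from 180 and 3 reads). Whether the stage changes differed between the injections was not tested.

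Leaving out a batch ended none of the calls of 24 hpf against an earlier stage. It moved several fitted folds by more than 1.5 times. From 5 hpf to 24 hpf, HAND2 stood at 9.65 in mock embryos without batch 2 and at 6.91 without batch 3, and at 6.85 in StCsm(EGFP) embryos without batch 2. From the 128-cell stage to 24 hpf in mock embryos, MYL7 went from 8.85 to 10.02 without batch 3, the first MYH6 from 8.20 to 8.92 without batch 1, and the first TNNT2 from 5.11 to 5.76 without batch 1. The third MYH6 went from 5.86 to 5.14, 5.21 and 8.83 without batches 1, 2 and 3. In StCsm(EGFP) embryos MYL7 went from 8.63 to 9.31 without batch 1 and to 8.02 without batch 3.

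Between the 128-cell stage and 5 hpf the members parted. The third MYH6 rose by 3.57 ± 0.86 on the log2 scale in mock (edgeR adjusted p 0.00221) and by 3.09 ± 0.61 in StCsm(EGFP) embryos (edgeR adjusted p 0.000436). It was the only one of the 5 to rise in either injection, where 36.7% and 36.4% of all genes tested rose. At the 128-cell stage it had 3 pooled reads in mock and 5 in StCsm(EGFP) embryos. Its mock value was 2.66 without batch 1 and 6.39 without batch 3, and the call held. The comparison gene MYH7 also rose, by 2.52 ± 0.44 in mock and 3.09 ± 0.49 in StCsm(EGFP) embryos (edgeR adjusted p 0.000206 and 6.81e-05). The first TNNT2 changed by -1.58 ± 0.57 in mock embryos (edgeR adjusted p 0.0254), where 35.9% of all genes tested fell. This call was lost without batch 1, with a log2 change of -1.03 and an edgeR adjusted p of 0.197. In StCsm(EGFP) embryos the change of the same identifier was 0.19 ± 0.59. MYL7, the first MYH6 and HAND2 passed the test in neither injection.

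Traces of filament transcripts at the 128-cell stage were uneven between batches. The first TNNT2 had 25, 11 and 9 reads in mock and 19, 7 and 4 reads in StCsm(EGFP) libraries, and the first MYH6 had 10, 2 and 5 reads and 9, 4 and 2 reads. Batch 1 was the highest in both injections for both. The summed level of 20 skeletal muscle identifiers was 59.0, 11.4 and 41.7 CPM in these mock libraries and 18.2, 8.92 and 8.28 CPM in the StCsm(EGFP) libraries, so it too was highest in batch 1. Relative to the mean mock level of 24 hpf, the first TNNT2 stood at 0.803% to 5.61% and the skeletal muscle sum at 0.03% to 0.213%. The first MYH6 stood at 0.113% to 0.669% and MYL7 at 0% to 0.455%. The part of muscle transcripts from other sources in these reads was not tested.

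**Figure D2:**
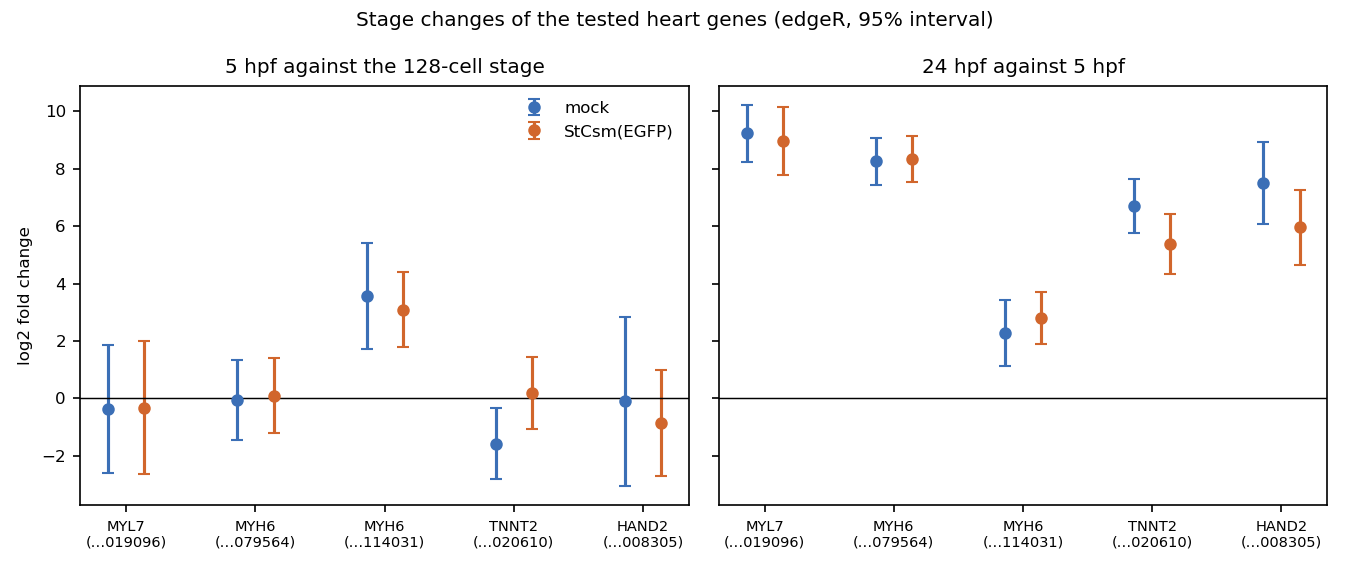
Log2 change of the 5 tested heart identifiers from the 128-cell stage to 5 hpf (left) and from 5 hpf to 24 hpf (right), in mock (blue) and StCsm(EGFP) embryos (orange), with 95% intervals from edgeR. All 5 rose in the second interval, which the filter largely set since they passed it through 24 hpf. The third MYH6 (ENSDARG00000114031) had already risen in the first.

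The second comparison asks whether injection of the complex changed the heart genes at 24 hpf. No member passed the test. MYL7, the first TNNT2 and HAND2 had lower levels in StCsm(EGFP) than in mock embryos in 3 of 3 batches, with fitted log2 values of -0.29, -0.31 and -0.26, and all had an edgeR adjusted p of 0.977. With library totals HAND2 was higher in StCsm(EGFP) embryos in batch 2, at 4.85 against 4.13 CPM. The share of all genes lower in 3 of 3 batches was not computed, so this direction is not read as a trait of the heart genes. Of the 9 identifiers 6 were tested, of which 5 had a negative and 1 a positive log2 value, with a median of -0.27 against -0.01 for all 16986 genes tested. Without batch 2 there were 2 values above and 4 below 0, with a median of -0.14. The median was -0.26 without batch 1 and -0.26 without batch 3. The percentage of all genes called was 0, with 819 genes at an unadjusted p under 0.05, and DESeq2 also called 0, with 262 such genes. With no filter 72 genes were called and without batch 3 there were 46, none of them a member.

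The gene myl7 was lower in StCsm(EGFP) embryos in 3 of 3 batches, with log2 ratios of -0.22, -0.40 and -0.28. The fit gave -0.29 ± 0.14 (95% interval -0.61 to 0.02), an edgeR p of 0.0646 and an edgeR adjusted p of 0.977. The interval runs from a change of -34.3% to one of 1.51% in level. The first TNNT2 was also lower in 3 of 3 batches, by -0.05, -0.53 and -0.38. Its fitted value was -0.31 ± 0.16 (95% interval -0.68 to 0.05, edgeR p 0.0835, adjusted p 0.977). Without batches 1, 2 and 3 the values were -0.32, -0.24 and -0.31 for MYL7. They were -0.44, -0.21 and -0.29 for the first TNNT2.

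The first MYH6 had log2 ratios of 0.05, -0.56 and 0.11, so that batch 2 alone was lower. Its fitted value was -0.12 ± 0.16 (95% interval -0.49 to 0.24), and it was -0.21, 0.09 and -0.25 without batches 1, 2 and 3. The comparison gene MYH7 behaved alike, with ratios of -0.02, -1.56 and 0.03, a fitted value of -0.49 ± 0.29 and 0.02 without batch 2. In the StCsm(EGFP) library of batch 2 the MYH7 level was 7.72 CPM, against 19.2 to 24.4 CPM in the other 5 libraries of 24 hpf.

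The myosin identifiers with fewer reads varied more. The second myh6 had ratios of 1.06, -1.11 and -1.19 and a fitted value of -0.45 ± 0.48, from 7 to 19 reads per library. It was -1.12 without batch 1, -0.07 without batch 2 and -0.13 without batch 3. The third MYH6 had ratios of 0.45, -0.12 and 1.21 and a fitted value of 0.47 ± 0.31 (95% interval -0.22 to 1.17), the only positive value among the tested members. It was 0.50, 0.76 and 0.17 without batches 1, 2 and 3. Both remained at an edgeR adjusted p of 0.977 with all batches.

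For hand2 the ratios were -0.51, -0.05 and -0.27. The fitted value was -0.26 ± 0.22 (95% interval -0.76 to 0.25, edgeR p 0.281, adjusted p 0.977). It was -0.14, -0.37 and -0.26 without batches 1, 2 and 3. After TMM scaling, HAND2 and the first TNNT2 were the 2 members whose StCsm(EGFP) libraries all lay below the mock libraries, and 3.92% of the 16986 genes tested did so. NKX2-5, which is not among the 9 identifiers or the genes tested, also had all StCsm(EGFP) libraries below the mock libraries. With library totals the groups of HAND2 and of NKX2-5 overlapped, and those of the first TNNT2 stayed apart. For NKX2-5 the totals gave 0.414 to 0.701 CPM in StCsm(EGFP) and 0.595 to 1.05 CPM in mock libraries. No member had all StCsm(EGFP) libraries above the mock libraries, as 3.05% of the genes tested had. With 3 libraries in each group, an exact two-sided permutation test of a single gene that ignores the batches cannot go below p = 0.1. A test that pairs the libraries by batch could not go as low.

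The remaining genes did not pass the filter on low counts. NKX2-5 was lower in StCsm(EGFP) embryos in 3 of 3 batches, with ratios of -0.44, -0.56 and -1.43 from 5 to 16 reads per library. Fitted without the filter on low counts, it stood at -0.79 ± 0.49 (95% interval -1.77 to 0.18, edgeR p 0.11, adjusted p 0.995). TBX5 was higher in StCsm(EGFP) embryos in each batch, with ratios of 0.78, 0.02 and 1.1 from 2 to 9 reads, and stood at 0.59 ± 0.62 in the same fit. For nppa the ratios were -0.22, 0.44 and -1.07, from 1 to 8 reads. The second TNNT2 had at most 1 read per library. In the fit without the filter, the 95% intervals of NKX2-5, TBX5 (-0.63 to 1.81), nppa (-1.83 to 1.52) and the second TNNT2 (-4.24 to 2.72) all included 0.

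**Figure D3:**
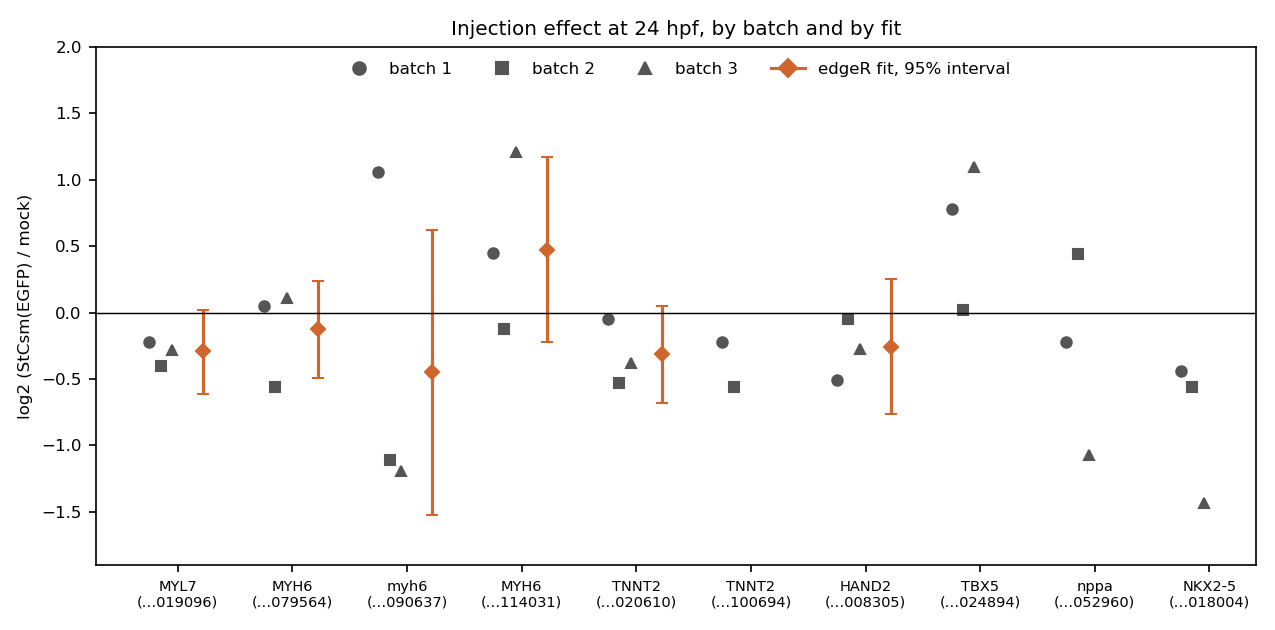
Log2 ratio of StCsm(EGFP) to mock at 24 hpf for each heart identifier, by batch (grey markers) and as fitted by edgeR with its 95% interval (orange, 6 tested identifiers). MYL7 is below 0 in all 3 batches, the first MYH6 is low in batch 2 alone, and every fitted interval includes 0.

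At the earlier stages the members had few reads. The first TNNT2 was the only member tested for an injection effect at the 128-cell stage, at a log2 value of -1.0 ± 0.35 (95% interval -1.75 to -0.25). It was lower in 3 of 3 batches, with an edgeR p of 0.0128 and an edgeR adjusted p of 0.145, and did not pass the threshold that 5.05% of all genes passed (783 genes, but 102 without batch 2, 234 without batch 1 and 0 without the replicate block). Without batch 1 this identifier was not tested. Skeletal muscle markers that were tested were also lower at this stage. Of their 20 identifiers 10 were tested, and all 10 were below 0 with a median of -1.74. In StCsm(EGFP) embryos 8 were called lower, where 2.79% of all genes were. The filter admits genes that are high in 1 group alone, so this count is description only. The summed level of the 20 overlapped between mock (11.4 to 59.0 CPM) and StCsm(EGFP) libraries (8.28 to 18.2 CPM). Of these markers 3 of 8 tested were called lower without batch 1, 10 of 17 without batch 2, 8 of 12 without batch 3 and 0 of 10 with no replicate block. Their part in the TNNT2 value was not tested. HAND2 had 4, 3 and 4 reads in StCsm(EGFP) and 1, 0 and 1 reads in mock libraries of this stage, and the second myh6 had 3, 5 and 2 reads against 0, 2 and 0. In CPM these were the 2 members whose StCsm(EGFP) libraries all lay above the mock libraries, as did 2.23% of the 26331 genes with a read at that stage. No member was tested at 5 hpf.

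Other genes of the heart were described by lists, and the tissue that their reads came from was not tested. The comparison gene MYH7 is one of the contraction genes listed. Of 19 identifiers of other cardiac contraction genes, 14 were tested for the injection effect at 24 hpf, with 5 values above and 9 below 0, a median of -0.10 (-0.02 without batch 2) and 0 calls. The median was -0.20 without batch 1 and -0.04 without batch 3. The highest CPM, which is not per length, was that of NEXN, which encodes the filament protein nexilin, and of actc1a, a cardiac-type actin. NEXN stood at 205 ± 0.946 CPM (SD, n = 3) in mock and 231 ± 15.9 CPM in StCsm(EGFP) embryos, a log2 value of 0.18 ± 0.13 (0.19 without batch 2). The actin actc1a stood at 139 ± 15.5 and 199 ± 91.7 CPM, at 0.43 ± 0.22 (0.05 without batch 2). The smallest p below 0 in the list was that of tnnc1a, cardiac troponin C, at -0.44 ± 0.25 (edgeR p 0.114, adjusted p 0.977) and at -0.53 without batch 2. From 5 hpf to 24 hpf in mock embryos 11 of 13 tested contraction genes rose and 2 fell, where 41.7% of all genes rose and 40% fell. Genes that passed the filter through 24 hpf alone had to rise, so this count is description only.

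Of 19 identifiers of other cardiac transcription factors, 17 were tested for the injection effect, with 4 values above and 13 below 0, a median of -0.15 (-0.05 without batch 2) and 0 calls. The median was -0.26 without batch 1 and -0.07 without batch 3. The list is broad, since factors such as NR2F1, MEF2C and TBX2 are also known outside the heart. The T-box repressor TBX2 stood at 53.6 ± 3.02 CPM (SD, n = 3) in mock and 43.4 ± 6.74 CPM in StCsm(EGFP) embryos, at -0.31 ± 0.16 (-0.12 without batch 2). MEF2C (ENSDARG00000029764), a factor of muscle genes, stood at 0.20 ± 0.16 (0.02 without batch 2). The 2 NR2F1 identifiers stood at -0.15 ± 0.14 (ENSDARG00000052695) and -0.25 ± 0.13 (ENSDARG00000017168), and without batch 2 at -0.05 and -0.19. In mock embryos 12 of 17 tested factors rose and 5 fell from 5 hpf to 24 hpf, where 41.7% and 40% of all genes tested did. The same limit of the filter holds for this count.

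The endocardium and valve list lay on the other side of 0. Its 10 identifiers were all tested, with 8 values above and 2 below 0, a median of 0.20 and 0 calls. Without batch 2 there were 7 values above and 3 below 0, with a median of 0.09. The median was 0.26 without batch 1 and 0.24 without batch 3. The matrix proteoglycan gene vcana stood at 11.1 ± 2.35 CPM (SD, n = 3) in mock and 21.8 ± 17.5 CPM in StCsm(EGFP) embryos, at 0.76 ± 0.29 (edgeR p 0.0263, adjusted p 0.977). The hyaluronan synthase gene HAS2 stood at 0.65 ± 0.27 (edgeR p 0.0388, adjusted p 0.977). Without batch 2, vcana stood at 0.22 and HAS2 at 0.18. This list is broad too. From 5 hpf to 24 hpf in mock embryos 6 of its 10 identifiers rose and 3 fell, where 41.7% and 40% of all genes tested did. The limit of the filter holds here too. HAS2 changed by -3.70 on the log2 scale, vcana by 0.62 and the 2 FN1 identifiers by -0.03 and 3.71. A shift of the endocardium can therefore not be read from these genes. The summed level of the endocardium and valve list was 180 to 219 CPM in mock and 192 to 328 CPM in StCsm(EGFP) libraries, the highest being that of batch 2. The epicardium list had 3 of 4 identifiers tested and a median of 0.12, and the endothelium list had 6 of 6 tested and a median of -0.09, both with 0 calls. Without batch 2 the medians were -0.33, over the 2 epicardium identifiers then tested, and -0.01. They were -0.05 and -0.16 without batch 1, and 0.06 and -0.09 without batch 3.

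Markers of other tissues were read beside the members. The 20 skeletal muscle identifiers summed to 27013 to 28490 CPM in mock and 21257 to 28711 CPM in StCsm(EGFP) libraries of 24 hpf, and none was at 0 in either group. All 20 were tested, with 3 values above and 17 below 0, a median of -0.16 and 0 calls. Without batch 2, whose choice drew on this list, 7 were above and 13 below 0. Their medians without batches 1, 2 and 3 were -0.23, -0.07 and -0.20. Those of highest CPM were atp2a1, a calcium pump, at -0.23 ± 0.20 (-0.21 without batch 2), and myhz1.1, a fast myosin heavy chain, at -0.31 ± 0.33. The value of myhz1.1 was 0.23 without batch 2. After TMM scaling, the summed skeletal muscle genes, the first MYH6 and the first TNNT2 were thus lowest in the StCsm(EGFP) library of batch 2. With library totals the gap of the skeletal muscle sum nearly closed. The part of the muscle level in the heart values, or the reverse, was not tested. The 6 blood identifiers summed to 758 to 1058 CPM in mock and 899 to 1034 CPM in StCsm(EGFP) libraries. Their median was 0.15, and it was 0.19, -0.05 and 0.33 without batches 1, 2 and 3.

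**Figure D4:**
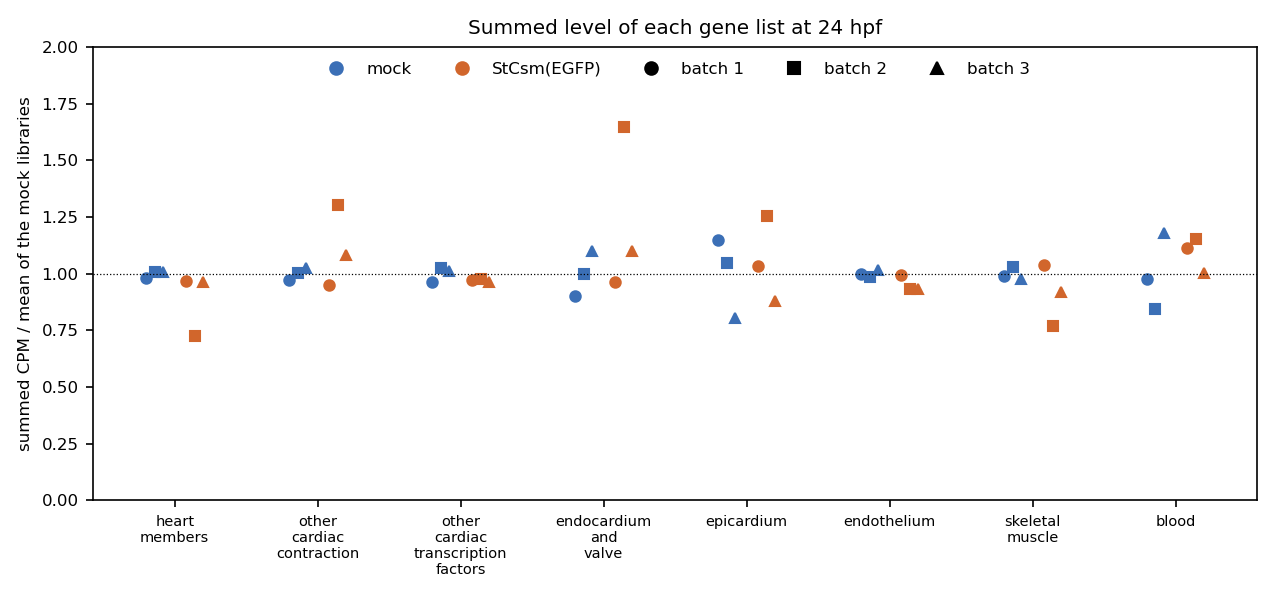
Summed CPM of each gene list in the 6 libraries of 24 hpf, divided by the mean of the mock libraries (mock blue, StCsm(EGFP) orange, marker shape for the batch). After TMM scaling, the StCsm(EGFP) library of batch 2 is the lowest of the 6 for the heart members and skeletal muscle. It is the highest for the endocardium and valve list and the other cardiac contraction genes. With library totals it is not the lowest for the heart members.

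Genes outside the members were ranked by the likeness of their pattern, measured as Pearson's r over the 18 libraries between log2(CPM + 1) and the mean of the 9 identifiers, among 11834 genes with a mean of at least 5 CPM at 24 hpf. Among the highest were ILDR2 (0.9990), METTL21EP (0.9986), MEIS2 (ENSDARG00000098240, 0.9984) and asb2b (0.9982). The 18 points share 3 stages, and 1299 genes reached an r of at least 0.98, so the measure mainly marks genes that are low before 24 hpf and present at 24 hpf.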

How the data were processed

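Poly(A)-selected RNA of pooled embryos was sequenced from libraries made with the CORALL kit. The authors deposited 1 file of unnormalized gene counts per library, and the deposited normalized tables were not used. The submitters' processing notes name bcl2fastq 2.16.10, UMI-tools 1.0.0, cutadapt 2.4, STAR 2.7.2b, HTSeq 0.11.2, R 3.6.1, DESeq2 1.24.0 and GRCz11. The annotation release, the strand setting of the counting and the use of molecular identifiers are not given in the sources used here. The special rows for unassigned reads were left out of the totals. Reads without a feature made up 11.1% to 17.9% of each library, ambiguous reads 0.669% to 1.7% and reads with several alignments 3.77% to 14.8%. Of the 32521 identifiers, 29201 were paired with a symbol.

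Counts were analysed in R 4.3.3 with edgeR 4.0.16 (filterByExpr by condition, TMM, robust quasi-likelihood fit, replicate number as a block, Benjamini-Hochberg adjustment over all genes tested, threshold 0.1). Injection was tested within a stage, and stages within an injection. The replicate number marks the independent experiment. As a check, deviations from the group means correlated between same-numbered libraries at 0.498 to 0.7 (128-cell stage), 0.0319 to 0.625 (5 hpf) and 0.229 to 0.492 (24 hpf), and between others at -0.546 to -0.133, -0.656 to 0.556 and -0.379 to 0.196, so the ranges overlapped at 5 hpf. A p-value sets a difference against the spread between these pools that is left after the block. The fits were also run on simulated data with large changes in genes with many reads and no batch effect. Small changes, low counts and batches were not covered. Pooled count ratios used exact binomial intervals at 95%. Alternatives were no replicate block, DESeq2 1.42.0 (likelihood ratio test, or size factors alone), library totals, no filter, at least 10 counts in every library, a threshold of 0.05, each replicate left out, all 18 libraries in 1 fit, and a pseudocount of 0.1 for the likeness of patterns.

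The members and lists were chosen with earlier results of these data known. Named genes are all members, from the other cardiac lists at most 2 genes of highest mock CPM at 24 hpf and 2 of smallest p for the injection effect, the 2 skeletal muscle genes of highest CPM, the 5 genes of highest likeness, of which 1 is not reported here, and MYH7. Lists for nerve and for arches and fin had medians of -0.07 and -0.03 for the injection effect at 24 hpf and 0 calls. Without batch 2 these medians were 0.01 and -0.08. Promoter sequences and a ratio of ventricular to atrial myosin were not analysed here.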

Additional observations from a re-analysis of the deposited data

How the results depend on the processing

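No alternative brought a heart identifier past the threshold for the injection effect at 24 hpf, and none ended the rise of the 5 tested identifiers to 24 hpf wherever they were tested. Of 684 recomputed gene values, 657 kept their direction and call, 7 lost a call, 1 gained one and 19 changed sign. The cause was not tested.

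With all genes counted, the injection effect at 24 hpf gave 0 calls, but 72 with no filter, and 0 to 46 with a replicate left out. At 5 hpf it gave 0 calls, but 2 with DESeq2's likelihood ratio test, 6 with no filter, 1 in the fit of all 18 libraries and 0 to 22 with a replicate left out. At the 128-cell stage it gave 783 calls, with 1513 for no filter, 199 for a threshold of 0.05, 1 in the fit of all 18 libraries and 102 to 875 with a replicate left out. With no replicate block it gave 0 calls at all 3 stages, and the stage calls moved by less than 1.5 times. No call of a member depended on the pairing.

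At least 10 counts in every library removes genes absent at a stage, and it left 8767, 9295 and 8692 calls in mock embryos (24 hpf against 5 hpf, 24 hpf against the 128-cell stage, 5 hpf against the 128-cell stage) and 8547, 9285 and 8727 in StCsm(EGFP) embryos, from 15605, 16570 and 13877 and from 15154, 16368 and 14059. Library totals moved the median log2 change of all genes from 0.04 to -0.36, from 0.23 to -0.79 and from -0.01 to -0.64 in mock embryos. The split of calls went from 8970 higher and 7600 lower to 6674 and 10316 for 24 hpf against the 128-cell stage in mock embryos, and from 8738 and 7630 to 6851 and 9883 in StCsm(EGFP) embryos. For 5 hpf against the 128-cell stage it went from 7018 and 6859 to 4950 and 9759, and from 7018 and 7041 to 5012 and 9428. The highest likeness, that of ILDR2, went from 0.999 to 0.989 with a pseudocount of 0.1.

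With a replicate left out, the injection effect at 24 hpf ranged from -0.25 to 0.09 for the first MYH6, from -0.77 to 0.02 for MYH7 and from -0.60 to 0.23 for myhz1.1. From the 128-cell stage to 5 hpf in mock embryos MYL7 ranged from -1.02 to 0.70, the same MYH6 from -0.40 to 0.43 and HAND2 from -2.67 to 0.74, with 0.03 for HAND2 by DESeq2's likelihood ratio test. In StCsm(EGFP) embryos MYL7 ranged from -1.06 to 0.75, the same MYH6 from -0.51 to 1.01 and the first TNNT2 from -0.53 to 1.21. With library totals this MYH6 stood at -0.48 and the first TNNT2 at -0.43, and with no filter this MYH6 stood at -0.03. From 5 hpf to 24 hpf in mock embryos the fibronectin identifier FN1 (ENSDARG00000019815) stood at -0.03, and at 0.09 with at least 10 counts in every library, -0.23 without replicate 1, 0.12 without replicate 2 and 0.03 without replicate 3. At 0 to 11 reads per group, depth limits the early levels of MYL7, HAND2, NKX2-5 and nppa.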
